A study of Lithobates pipiens with 72 samples.

Results

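The genes described are enzymes of sterol and fatty acid synthesis and a receptor for lipoprotein uptake, followed in whole leopard frog tadpoles (Rana pipiens) exposed to 4 munitions compounds or mixtures. Members were chosen by the protein name given to each transcript of a de novo transcript set. 9 name terms or transcript identifiers were looked up, and for each distinct name the transcript with the most counts was taken. 6 of the 9 terms matched, which gave 7 members of 19128 transcripts, and each matched name had 1 transcript. The terms lanosterol, farnesyl pyrophosphate synthase and mevalonate kinase matched no name.

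The members are diphosphomevalonate decarboxylase-like (transcript 270203, 75884 estimated counts over all libraries), squalene monooxygenase-like (transcript 264625, 60358 counts), fatty acid synthase (transcript 382866, 7227 counts), acetyl-CoA carboxylase 1 (transcript 235418, 4014 counts), a mitochondrial-like hydroxymethylglutaryl-CoA lyase (transcript 302559, 3929 counts), Low density lipoprotein receptor-1 (transcript 034226, 3275 counts) and acetyl-CoA carboxylase-like (transcript 409062, 35 counts). The lyase came in through its name. It cleaves hydroxymethylglutaryl-CoA during leucine breakdown and ketone body formation and is not an enzyme of sterol synthesis. 6 members passed the low-count filter in every exposure, and acetyl-CoA carboxylase-like, which never exceeded 0.38 CPM (counts scaled to a common library total in the usual way), passed it in none.

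Tadpoles were exposed for 96 h, from an age of 7 to 10 days, to 2,4,6-trinitrotoluene (TNT) at 1.5, 2.3 or 3.4 mg/L, to nitroguanidine (NQ) at 30, 150, 750 or 3750 mg/L, to methylnitroguanidine (MeNQ) at 34, 170, 851 or 4225 mg/L, or to the explosive formulation IMX-101 at 10, 20 or 40 mg/L, each against its own control in dechlorinated tap water. TNT reached the water from a dried acetone coating, the other agents were dissolved directly, and IMX-101 solutions, whose component NTO is acidic, were adjusted to neutral pH. The 18 groups held 4 libraries each, labelled A to D, and each library pooled RNA from whole bodies of 5 tadpoles. Nothing in the labels ties the pools to separate clutches, so p-values measure the spread between pools. In a whole-body pool, fewer cells of a type and less RNA per cell cannot be told apart.

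Cholesterol is built from acetyl-CoA through mevalonate. Diphosphomevalonate decarboxylase makes the isoprene unit from which longer chains are assembled, squalene synthase joins farnesyl chains, and squalene monooxygenase carries out the first oxygenation on the way to sterols. Fatty acid synthesis starts from the same acetyl-CoA: acetyl-CoA carboxylase makes malonyl-CoA and fatty acid synthase extends the chain with NADPH as the reductant. The low density lipoprotein (LDL) receptor brings in cholesterol from outside the cell. In mammals, when sterols in the cell are low, SREBP transcription factors raise the sterol enzymes and the LDL receptor together, and fatty acid synthesis also answers to insulin and feeding.

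Total estimated counts per library ran from 1.67 M (mega-counts; TNT control A) to 21.7 M, with a median of 10.8 M. In 62 libraries 2 sequencing runs were summed, and 10 had 1 run: TNT control A, TNT 2.3 mg/L D and all 8 libraries of IMX-101 at 20 and 40 mg/L. The IMX-101 control and 10 mg/L libraries were sequenced on another lane, so for the higher IMX-101 doses dose and sequencing set cannot be told apart. The repeat runs show how far the 2 counts of a library went together for each member. Squalene monooxygenase-like was never at 1 count or below in one run and at 10 or above in the other. Diphosphomevalonate decarboxylase-like, fatty acid synthase and the lyase each did so in 2 of the 62 libraries. Acetyl-CoA carboxylase 1 did so in 20 and Low density lipoprotein receptor-1 in 23, and their values are read below with that limit. The 2 numbers are not alike, since receptor counts came in steps of 19.6, and 1 step against 0 meets this rule. Pearson's r between the 2 runs, on log2(CPM + 1), was 0.97 for squalene monooxygenase-like, 0.96 for fatty acid synthase and 0.78 for diphosphomevalonate decarboxylase-like. It was 0.27 for the receptor, 0.23 for acetyl-CoA carboxylase 1 and 0.02 for the lyase. This r also depends on how far libraries differ, and the lyase ranged only from 2.41 to 10.2 CPM.

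In TNT-exposed tadpoles both sterol enzymes rose at every dose. Diphosphomevalonate decarboxylase-like was 2.57-, 2.75- and 2.24-fold higher at the low, middle and high dose than in the TNT controls, and squalene monooxygenase-like 3.07-, 3.35- and 2.34-fold higher. No exposed library overlapped a control library for either gene. The share of all transcripts without overlap is not reported here, so non-overlap, here and below, is a description only. The rise was present at the lowest dose and was not larger at the highest.

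Diphosphomevalonate decarboxylase-like stood at 19.1, 33.8, 32.4 and 27.7 CPM in TNT controls A to D. It stood at 81.9, 68.9, 61.9 and 80.3 CPM at 1.5 mg/L, at 97.5, 73.0, 58.0 and 86.2 CPM at 2.3 mg/L, and at 52.8, 54.7, 67.7 and 76.5 CPM at 3.4 mg/L. The lowest exposed library, at 52.8 CPM, lay above the highest control library, at 33.8 CPM. The log2 fold change against control was 1.36 (SE 0.19, edgeR's quasi-likelihood test, adjusted p = 0.001) at 1.5 mg/L. It was 1.46 (SE 0.19, adjusted p = 0.0003) at 2.3 mg/L and 1.16 (SE 0.19, adjusted p = 0.00092) at 3.4 mg/L in the same edgeR fit.

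Squalene monooxygenase-like stood at 19.7, 14.4, 19.6 and 13.1 CPM in the TNT controls. It stood at 55.4, 52.4, 32.7 and 61.4 CPM at 1.5 mg/L, at 71.6, 49.9, 40.8 and 58.1 CPM at 2.3 mg/L, and at 30.8, 32.5, 43.3 and 45.2 CPM at 3.4 mg/L. All 12 exposed libraries were at or above 30.8 CPM and all 4 controls at or below 19.7 CPM. The log2 fold changes were 1.62 (SE 0.24), 1.74 (SE 0.24) and 1.23 (SE 0.23) from the lowest to the highest dose, with edgeR adjusted p of 0.0013, 0.00038 and 0.0027. The calls of both enzymes at all 3 doses held when each library was left out in turn and under every other setting tried.

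**Figure D1:**
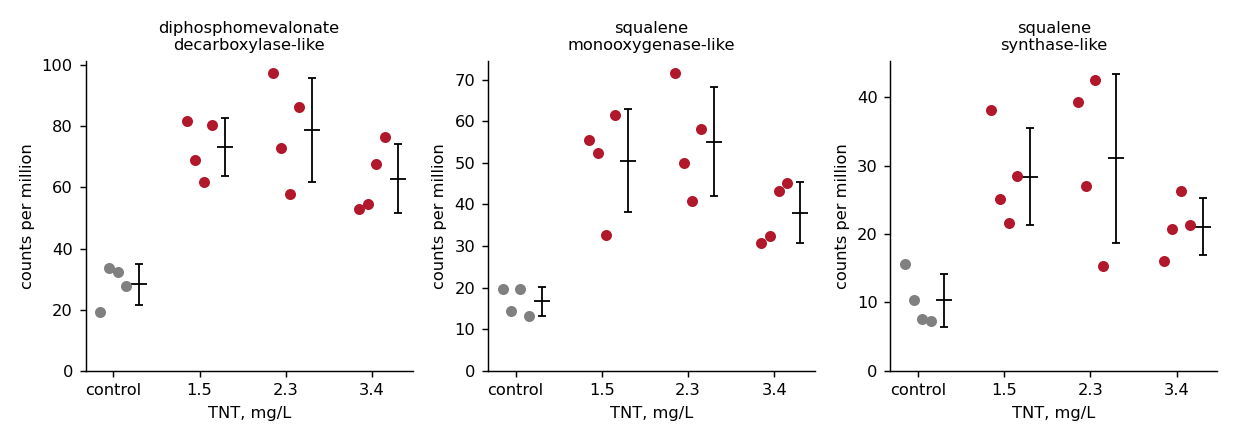
CPM (y axis) of diphosphomevalonate decarboxylase-like, squalene monooxygenase-like and squalene synthase-like in each TNT library by dose (x axis, control at the low end); points are libraries, bars mean ± SD of 4. For the first of these genes all 12 exposed libraries lie between 52.8 and 97.5 CPM and the controls between 19.1 and 33.8 CPM, and squalene synthase-like shows 1 overlapping library at 2.3 mg/L.

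Across all transcripts tested in TNT tadpoles, 1.76% were called higher at 1.5 mg/L, 3.05% at 2.3 mg/L and 6.37% at 3.4 mg/L, against 2, 2 and 3 of the 6 tested members. Called lower were 1.0%, 2.34% and 5.61% of transcripts and no member. The members were chosen with earlier results of these data known, so their share and their medians are no independent support. The member added at 3.4 mg/L was Low density lipoprotein receptor-1, whose call is limited as given below. The median log2 fold change of the 6 tested members was 1.1, 0.82 and 1.02 at the 3 doses, against 0.04, 0.03 and 0.06 over all transcripts. These medians count Low density lipoprotein receptor-1 at 7.95, 7.39 and 7.47, values that are not read as folds below. They rest on it and the 2 enzymes. At 2.3 mg/L fatty acid synthase was at -0.19, acetyl-CoA carboxylase 1 at -4.41 and the lyase at 0.17, none of them called. Between 3.4 and 2.3 mg/L, diphosphomevalonate decarboxylase-like differed by -0.3 on the log2 scale (edgeR adjusted p = 0.7) and squalene monooxygenase-like by -0.51 (adjusted p = 0.42), in a comparison that called 0.0712% of transcripts. A straight slope per dose step called 11.5% of transcripts but neither enzyme, with 0.33 per step (edgeR adjusted p = 0.11) for the decarboxylase and 0.34 (adjusted p = 0.23) for the monooxygenase. A slope over the log10 of dose called both, at 1.04 per unit (edgeR adjusted p = 0.001) and 1.19 (adjusted p = 0.0039). For that slope the control was given a nominal dose well below the lowest one, a choice that sets its size per unit. It therefore weighs mainly exposed against control libraries and does not show a rise between doses.

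The TNT controls were low for both enzymes beside the controls of the other exposures. Diphosphomevalonate decarboxylase-like ranged from 83.4 to 154 CPM in NQ controls, from 72.5 to 231 CPM in MeNQ controls and from 47.3 to 196 CPM in IMX-101 controls. The TNT-exposed libraries, at 52.8 to 97.5 CPM, lay within the span of those controls. Squalene monooxygenase-like likewise ranged from 44.6 to 182, from 34.8 to 232 and from 38.6 to 180 CPM in NQ, MeNQ and IMX-101 controls, against 13.1 to 19.7 CPM in TNT controls. The exposures were separate experiments with their own controls, and no test was made between their controls.

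Squalene synthase-like (FDFT1), the enzyme of the step before squalene monooxygenase and a gene of the listed sterol pathway, moved the same way. It stood at 15.7, 10.4, 7.65 and 7.35 CPM in TNT controls, at 38.1, 25.1, 21.7 and 28.5 CPM at 1.5 mg/L, at 39.4, 27, 42.5 and 15.4 CPM at 2.3 mg/L, and at 16.1, 20.8, 26.3 and 21.3 CPM at 3.4 mg/L. One library, 2.3 mg/L D, fell within the control range. The log2 fold changes were 1.51 (edgeR adjusted p = 0.022), 1.64 (adjusted p = 0.008) and 1.11 (adjusted p = 0.039). The calls were less steady than those of the members. At 3.4 mg/L the edgeR adjusted p ran from 0.077 to 0.13 when control B, C or D or exposed B, C or D was left out, and at 1.5 mg/L from 0.056 to 0.082 without control B, C or D or exposed A or D. With sequencing lane as a term it was 0.11 at 3.4 mg/L and 0.098 at 1.5 mg/L. With only the libraries compared it was 0.071, 0.068 and 0.059 from low to high dose, and with no low-count filter 0.054 at 3.4 mg/L. In one run of control C the transcript had 0.0 estimated counts against 68.4 in the other.

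Tissue markers moved in the same tadpoles. Of 11 tested marker genes of liver, intestine, nervous system and muscle, 0 were called higher and 5 lower at 3.4 mg/L, among them transthyretin (log2 fold change -2.25), the intestinal disaccharidase MGAM/SI (-1.15), the intestinal glucose transporter SLC5A1 (-0.92) and myosin heavy chain MYH4 (-1.82). At that dose 6.37% of all transcripts were called higher and 5.61% lower. Summed intestinal markers ranged from 2080 to 3090 CPM at 3.4 mg/L, against 4180 to 5870 CPM in controls. Summed liver markers ranged from 2360 to 2690 CPM at 3.4 mg/L, against 2430 to 3610 CPM in controls, and muscle markers from 23300 to 28800 CPM against 24100 to 31800 CPM. ANPEP (intestine) and SNAP25 (neurons) had 0 counts in every library. At 1.5 mg/L, where both sterol enzymes had already risen, 1 marker was called higher, fibrinogen FGB (log2 fold change 0.63, edgeR adjusted p = 0.02), and 1 lower, MYH4 (-1.52, adjusted p = 0.00089). The shares over all transcripts at 1.5 mg/L were 1.76% higher and 1.0% lower. Summed liver markers ranged from 3690 to 4240 CPM at 1.5 mg/L, against 2430 to 3610 CPM in controls, without overlap, and intestinal markers from 3500 to 4120 CPM against 4180 to 5870 CPM. The liver genes did not move together at 1.5 mg/L. FGB (2560 to 3020 CPM against 1420 to 2260 CPM) and transferrin TF (757 to 888 CPM against 541 to 704 CPM) lay above all controls. Transthyretin lay below them all, at 236 to 435 CPM against 470 to 647 CPM. The part of these shifts in the sterol enzyme values was not tested.

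In the other exposures the same enzymes varied widely between pools and were never called. In NQ tadpoles squalene monooxygenase-like ranged from 27.4 to 142 CPM in the 16 exposed libraries, with a median of 46.1 CPM, against 44.6 to 182 CPM and a median of 58.9 CPM in controls. Diphosphomevalonate decarboxylase-like ranged from 13.8 to 134 CPM in exposed libraries and from 83.4 to 154 CPM in controls. At 3750 mg/L NQ its log2 fold change was -0.13 (95% interval -1.21 to 0.94), and that of the monooxygenase -0.14 (95% interval -1.26 to 0.97). These intervals leave room for changes of either sign.

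In MeNQ tadpoles both enzymes had lower means than the controls at 170 and 851 mg/L without passing the test. At 170 mg/L squalene monooxygenase-like stood at 34.0, 22.4, 21.9 and 23.3 CPM, against 64.0, 51.3, 34.8 and 232 CPM in MeNQ controls. Its exposed libraries were all below the lowest control, and the log2 fold change was -1.9 (SE 0.69, unadjusted p = 0.014, edgeR adjusted p = 0.41). Control D, at 232 CPM, lay far above the other controls and adds to that fold. Diphosphomevalonate decarboxylase-like stood at 76.0, 31.7, 28.4 and 43.8 CPM at 170 mg/L, against 135, 106, 72.5 and 231 CPM in controls, with 1 exposed library above the lowest control. Its log2 fold change was -1.59 (SE 0.54, edgeR adjusted p = 0.38). At 4225 mg/L the log2 fold changes were -0.42 for the decarboxylase (edgeR adjusted p = 0.95) and -0.28 for the monooxygenase (adjusted p = 1.0).

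In IMX-101 tadpoles squalene monooxygenase-like stood at 89.6, 159, 218 and 186 CPM at 40 mg/L, against 164, 68.7, 38.6 and 180 CPM in controls. The groups overlapped, and the log2 fold change was 0.54 (95% interval -0.54 to 1.61, edgeR adjusted p = 0.7). The decarboxylase differed by 0.51 on the log2 scale (95% interval -0.61 to 1.63, adjusted p = 0.74).

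**Figure D2:**
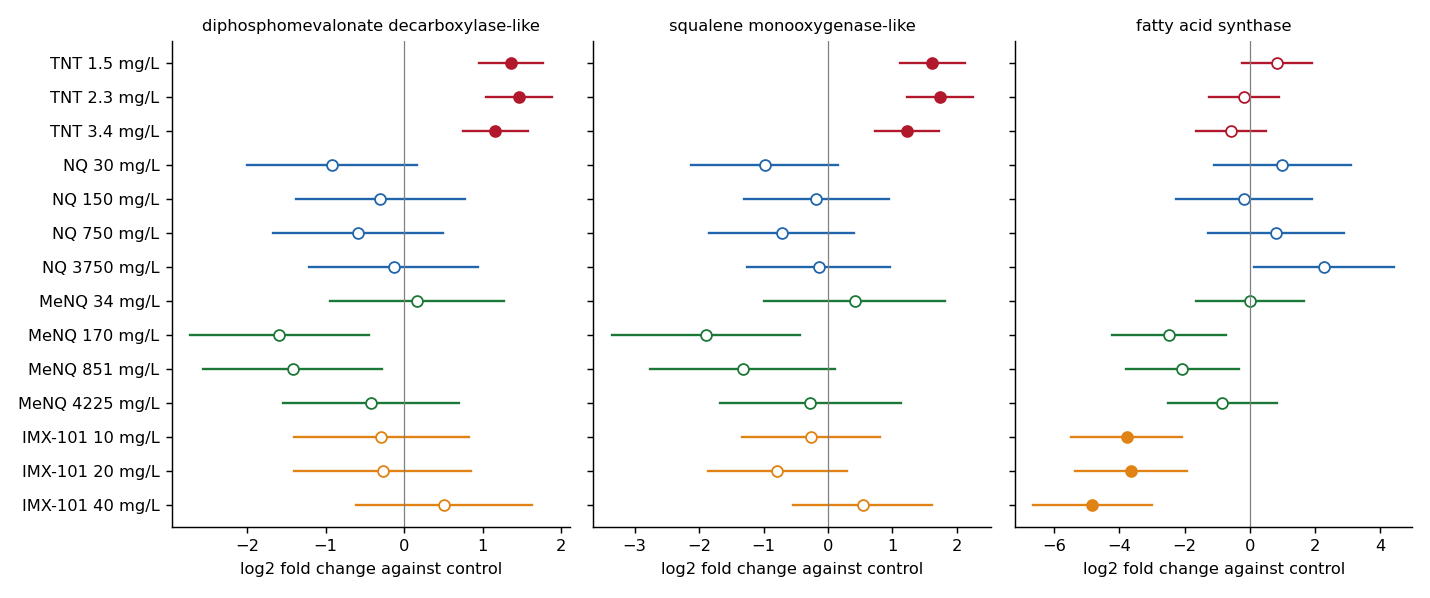
log2 fold change against the exposure's own control (exposed over control) with 95% interval for diphosphomevalonate decarboxylase-like, squalene monooxygenase-like and fatty acid synthase at each of 14 doses; filled points have an edgeR adjusted p under 0.05. The sterol enzymes are filled at the 3 TNT doses alone and fatty acid synthase at the 3 IMX-101 doses alone.

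No member was called in any NQ or MeNQ comparison. With edgeR, an unadjusted p under 0.05 was found for 0, 1, 0 and 1 members at 30, 150, 750 and 3750 mg/L NQ and for 0, 3, 2 and 0 members at 34, 170, 851 and 4225 mg/L MeNQ, and DESeq2's Wald test called 0 at each. The background of calls was low. Of all transcripts 0.0%, 0.0154%, 0.0% and 4.48% were called at the 4 NQ doses from low to high, and 0.0%, 0.156%, 0.437% and 0.393% at the 4 MeNQ doses. In edgeR an unadjusted p under 0.05 was found for 1057, 979, 875 and 2117 of 12969 transcripts at the 4 NQ doses from low to high. At the 4 MeNQ doses it was found for 652, 1294, 1598 and 1352 of 13496. The highest against the next lower dose called 0.887% of transcripts in NQ and 0.941% in MeNQ, and the slope per dose step 1.23% and 0.0889%.

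NQ and MeNQ differ by 1 methyl group, which MeNQ carries and NQ lacks, and were given at 4 matched molar doses of 0.3, 1.4, 7.2 and 36 mmol/L. The response to MeNQ minus the response to NQ was compared at each of the 4 pairs, with p-values adjusted over all transcripts. It was called for 0.0213%, 0.128%, 0.114% and 0.626% of transcripts and for no member, with 0, 1, 1 and 1 members at an unadjusted p under 0.05 in edgeR's quasi-likelihood test. Over all 14068 transcripts tested, 1093, 1353, 1200 and 1777 had such an unadjusted p. For squalene monooxygenase-like the difference was 1.38 on the log2 scale (95% interval -0.41 to 3.17) at 0.3 mmol/L and -1.71 (-3.51 to 0.08) at 1.4 mmol/L. At 7.2 mmol/L it was -0.61 (-2.4 to 1.17), and at 36 mmol/L it was -0.15 (-1.93 to 1.62). Diphosphomevalonate decarboxylase-like followed the same signs, with 1.07 (-0.47 to 2.6), -1.28 (-2.82 to 0.26), -0.84 (-2.38 to 0.7) and -0.31 (-1.84 to 1.22) from low to high dose. Fatty acid synthase had negative differences at all 4 pairs, the largest at 36 mmol/L with -3.14 (95% interval -5.81 to -0.48, unadjusted p = 0.022, edgeR adjusted p = 0.29). For Low density lipoprotein receptor-1 the interval at 36 mmol/L ran from -4.44 to 5.41. The lyase had the narrowest interval of the members at 36 mmol/L, with -0.29 (-1.0 to 0.42).

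Low density lipoprotein receptor-1 takes up cholesterol-carrying particles. Its estimated counts came in steps. All 75 run values above 0.5, of 134, were whole multiples of a median step of 19.6 estimated counts within 0.05 of a step, the highest of them 10 steps, and the other 59 were at 0. An estimated count near 20 for this transcript therefore stood for 1 step, and edgeR read it as many reads. The values are given in steps for that reason.

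In TNT tadpoles the receptor had 0, 0, 0 and 0 steps in controls A to D, 0, 1, 4 and 3 at 1.5 mg/L, 0, 1, 1 and 1 at 2.3 mg/L, and 2, 1, 1 and 1 at 3.4 mg/L. The controls held 0 steps in 31.1 M counts, which allows up to 0.0965 steps per M counts (a floor of 3 steps over the group). At 1.5 mg/L 8 steps in 45 M gave 0.178 steps per M counts (exact Poisson 95% interval 0.0768 to 0.351). At 3.4 mg/L 5 steps gave 0.117 steps per M counts (0.0379 to 0.273), and the 3 steps at 2.3 mg/L were no more than the floor. The exact interval of the controls reached 0.119 steps per M counts, above the lower end of both intervals, so no fold is given. These intervals cover counting error only.

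On the deposited scale edgeR's adjusted p was 0.072, 0.06 and 0.032 from the lowest to the highest dose, so the receptor counted among the 3 members called at 3.4 mg/L. That call was lost in 7 of 8 leave-outs (adjusted p 0.053 to 0.078, without any exposed library or control B, C or D; 0.048 without control A), with the replicate letter as a block (0.066) and with lane as a term (0.062). Divided by its step, the transcript did not pass the low-count filter in TNT tadpoles, and 2 members were then called at 3.4 mg/L. DESeq2's Wald test called it at 1.5 mg/L (adjusted p = 0.0018), at 2.3 mg/L (0.0039) and at 3.4 mg/L. Those calls too are on the deposited scale, where 1 step stands for many reads. Elsewhere the receptor had 5 steps over the NQ control group, 9 over the MeNQ controls and 25 over the IMX-101 controls, and no other comparison called it. Over the IMX-101 groups it had 25 steps in controls, 22 at 10 mg/L, 11 at 20 mg/L and 5 at 40 mg/L, or 0.39, 0.428, 0.426 and 0.188 steps per M counts, with overlapping intervals.

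Fatty acid synthase, which builds palmitate from malonyl-CoA, fell in IMX-101 tadpoles at every dose. It was 13.7-, 12.5- and 28.4-fold lower at 10, 20 and 40 mg/L than in controls. The 12 exposed libraries ranged from 0.0 to 1.63 CPM and the 4 controls from 5.1 to 23.8 CPM, without overlap. How many of all transcripts did not overlap is not reported here. Controls differed between the experiments. They ranged from 2.31 to 3.17 CPM in NQ, 2.03 to 20.7 CPM in MeNQ and 13.9 to 32.3 CPM in TNT.

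The IMX-101 controls stood at 6.02, 5.1, 20.5 and 23.8 CPM, from 120, 87, 296 and 402 estimated counts. Fatty acid synthase stood at 0.41, 1.21, 0.911 and 1.46 CPM at 10 mg/L, at 0.677, 0.692, 1.4 and 1.63 CPM at 20 mg/L, and at 0.862, 0.0, 0.677 and 0.376 CPM at 40 mg/L. The exposed values rest on 0 to 17 counts per library, and the 0 counts of 40 mg/L B allow up to 0.495 CPM. Controls A and B were well below controls C and D, yet above every exposed library. The log2 fold change was -3.78 (SE 0.79, edgeR adjusted p = 0.035) at 10 mg/L, -3.64 (SE 0.8, adjusted p = 0.017) at 20 mg/L and -4.83 (SE 0.85, adjusted p = 0.0028) at 40 mg/L. The slope was -1.56 per dose step (SE 0.27, edgeR adjusted p = 0.0018), while 40 against 20 mg/L gave -1.18 (adjusted p = 0.71).

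The 10 mg/L group, on the same lane as the controls, carries the comparison that the sequencing set does not touch, and its call was not steady. Its edgeR adjusted p was 0.097 without control C, 0.12 without control D and 0.077 to 0.12 without any 1 of the 4 exposed libraries. It was 0.071 with the 8 libraries alone and 0.091 with the replicate letter as a block. The log2 fold change stayed between -4.06 and -3.39 in the leave-outs. At 20 mg/L the call was lost without control D (0.065) and without 20 mg/L B (0.063). At 40 mg/L, and for the slope, it held in every leave-out and setting.

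The background in IMX-101 tadpoles was 0.718% of transcripts called higher and 0.271% lower at 10 mg/L, 2.66% and 2.55% at 20 mg/L, and 3.84% and 3.68% at 40 mg/L. The members were chosen with earlier results known, as said for TNT tadpoles. Fatty acid synthase was the 1 member of 6 tested that was called, and it was called lower, at each dose. The slope called 7.73% of transcripts and the same 1 member, and 40 against 20 mg/L called 0.303% and none. At 10 mg/L 0 of 12 tested tissue markers were called in edgeR, with 6 at an unadjusted p under 0.05 and 2 called by DESeq2. Over all transcripts 1250 of 12542 had such an unadjusted p in edgeR. Summed liver markers ranged from 6140 to 6490 CPM at 10 mg/L, against 5150 to 5660 CPM in controls, and intestinal markers from 1960 to 2560 CPM against 2090 to 3200 CPM. At 40 mg/L 4 markers were higher (fibrinogen FGB, transferrin TF, actin ACTA1, troponin TNNT3) and 2 lower (MYH4 and titin TTN). Summed liver markers then ranged from 6820 to 8720 CPM and intestinal markers from 1590 to 2380 CPM. Within the liver sum transthyretin went the other way, at 433 to 535 CPM at 40 mg/L against 571 to 709 CPM in controls. The part of these marker shifts in the fatty acid synthase values was not tested.

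**Figure D3:**
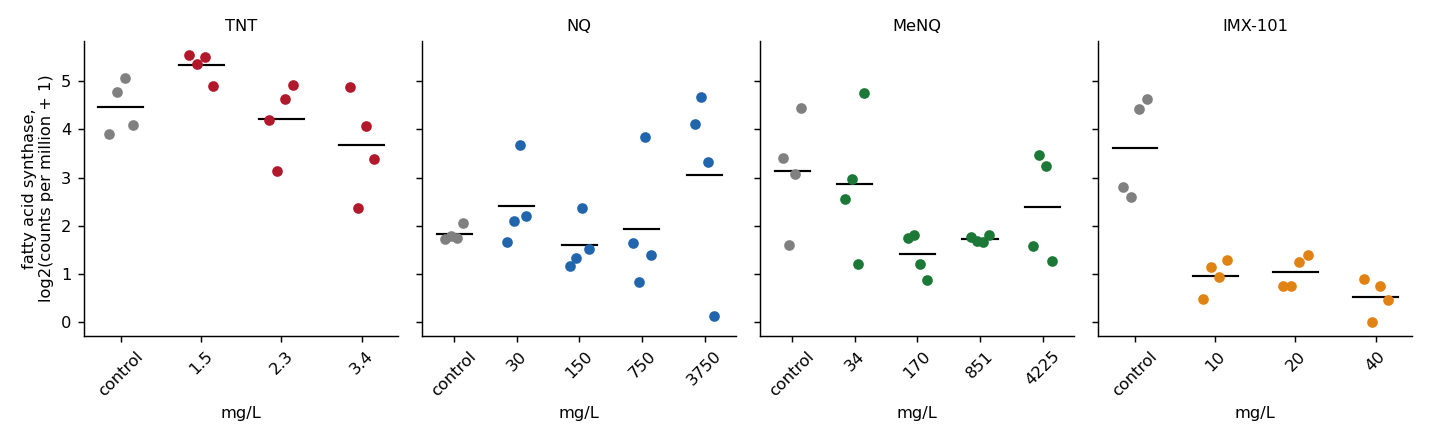
Fatty acid synthase as log2(CPM + 1) (y axis) in each library of the 18 groups (x axis, each exposure from its control to its highest dose); points are libraries and lines group means. The 12 exposed IMX-101 libraries lie below all 4 IMX-101 controls.

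In no other exposure was fatty acid synthase called. In TNT tadpoles it averaged 22.1 ± 8.63 CPM in controls, 39.7 ± 7.73 CPM at 1.5 mg/L, 19.5 ± 9.26 CPM at 2.3 mg/L and 14.5 ± 10.5 CPM at 3.4 mg/L (SD, n = 4 each). The log2 fold changes were 0.84, -0.19 and -0.59 (edgeR adjusted p = 0.56, 0.95 and 0.6). At 1.5 mg/L the 95% interval, -0.23 to 1.91, held the values of both sterol enzymes, 1.36 and 1.62. Those at 2.3 mg/L (-1.26 to 0.88) and 3.4 mg/L (-1.66 to 0.48) ended below the sterol enzymes' values. No test compared the genes. At 3750 mg/L NQ it stood at 16.3, 24.6, 9.03 and 0.0932 CPM, against 2.31, 2.45, 2.38 and 3.17 CPM in NQ controls. 3 of the 4 exposed libraries were above every control and the other was below them all, and the log2 fold change of 2.28 (SE 1.0) did not pass (unadjusted p = 0.04, edgeR adjusted p = 0.27). At 170 mg/L MeNQ it averaged 1.76 ± 0.814 CPM, against 9.93 ± 7.83 CPM in MeNQ controls (SD, n = 4 each), a log2 fold change of -2.48 (unadjusted p = 0.0084, edgeR adjusted p = 0.37). At 851 mg/L the average was 2.33 ± 0.171 CPM and the log2 fold change -2.07 (edgeR adjusted p = 0.32).

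Acetyl-CoA carboxylase 1, which makes the malonyl-CoA that fatty acid synthase uses, was either well counted or near 0 from library to library. It ranged from 0.0 to 31.3 CPM over the 72 libraries with a median of 1.29 CPM. At 3.4 mg/L TNT it stood at 28.7, 7.25, 0.951 and 25.3 CPM, against 0.0, 16.0, 2.47 and 15.3 CPM in TNT controls. At 40 mg/L IMX-101 it stood at 15.9, 31.3, 27.4 and 0.626 CPM, against 1.45, 11.1, 0.0 and 0.0 CPM in controls. Exposed and control libraries overlapped in every exposure.

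The same split ran between repeat runs of 1 library. Of 36 libraries in which at least 1 run had 10 or more counts, 20 had 1 count or fewer in the other run. MeNQ 4225 mg/L A had 146.8 estimated counts in one run and 0.3 in the other, and IMX-101 10 mg/L C had 127.8 and 0.0. The 2 runs of MeNQ 4225 mg/L A held 6.23 M and 7.67 M counts in all, and those of IMX-101 10 mg/L C 6.07 M and 6.31 M. edgeR called this transcript in no comparison. DESeq2's Wald test called it at 3.4 against 2.3 mg/L TNT (log2 fold change 5.43, adjusted p = 0.047).

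The acetyl-CoA carboxylase-like transcript had 35 counts in all and was not tested. The mitochondrial-like hydroxymethylglutaryl-CoA lyase was the steadiest member, at 2.41 to 10.2 CPM with a median of 5.01 CPM over the 72 libraries. It was called nowhere. Its farthest group was NQ at 150 mg/L, with 8.66, 7.84, 10.2 and 8.14 CPM against 4.86, 5.21, 5.85 and 4.12 CPM in NQ controls. The groups did not overlap, and the log2 fold change was 0.81 (unadjusted p = 0.012, edgeR adjusted p = 0.49). This group was picked as the farthest, and how many of all transcripts did not overlap is not reported here. NQ at 750 and 3750 mg/L averaged 4.92 ± 0.831 and 5.13 ± 0.606 CPM, near the controls at 5.01 ± 0.722 CPM (SD, n = 4 each).

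The wider pathway was read from 6 lists of 77 genes, of which 40 were matched by name. In each exposure 27 passed the filter, though not the same 27. The transcripts named SREBF1, SCAP and INSIG1, parts of the SREBP sterol sensor, had 0 counts in every library, as did those named CYP51A1 and ELOVL4. INSIG2, of the same list as these sensor genes, had 43311 counts. Whether the genes at 0 counts were expressed was not tested. Of the 27 tested in TNT tadpoles, 5 were higher and 0 lower at 1.5 mg/L, 7 higher and 1 lower at 2.3 mg/L, and 7 higher and 1 lower at 3.4 mg/L. Over all transcripts 1.76%, 3.05% and 6.37% were called higher at these doses and 1.0%, 2.34% and 5.61% lower. The median log2 fold change of the 27 was 0.19, 0.2 and 0.37, against 0.04, 0.03 and 0.06 over all transcripts. The lists too were chosen with earlier results known, so these shares, and those in IMX-101 tadpoles below, are no independent support.

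Of the listed sterol sensing and uptake genes, 2 of 6 were higher at 3.4 mg/L TNT. Lysosomal acid lipase (LIPA), which frees cholesterol from lipoproteins taken into the cell, stood at 37.8, 29.9, 50.8 and 58.3 CPM at 3.4 mg/L, against 3.48, 7.15, 5.62 and 1.61 CPM in TNT controls. Every exposed library was far above every control, with log2 fold changes of 2.77, 3.04 and 3.3 from low to high dose (edgeR adjusted p = 0.003, 0.00088 and 0.00024). NPC1, which exports that cholesterol from the lysosome, averaged 126 ± 12.6 CPM at 3.4 mg/L, against 55.9 ± 20.5 CPM in controls (SD, n = 4 each), a log2 fold change of 1.19 (edgeR adjusted p = 0.0044). Its call at 2.3 mg/L (0.88, edgeR adjusted p = 0.049) was lost in 7 of 8 leave-outs, all but that of control D, with adjusted p of 0.064 to 0.15. The scavenger receptor SCARB1, at 0.44, did not pass (edgeR adjusted p = 0.7).

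The NADPH list had 2 of 3 genes higher at 3.4 mg/L. Isocitrate dehydrogenase IDH1 averaged 419 ± 21.1 CPM at 3.4 mg/L, against 200 ± 36.6 CPM in TNT controls (SD, n = 4 each), with log2 fold changes of 0.89, 1.07 and 1.09 from low to high dose (edgeR adjusted p = 0.00019, 1.5e-05 and 6.6e-06). Phosphogluconate dehydrogenase PGD was 1.99 higher on the log2 scale (edgeR adjusted p = 0.032), a call lost without control B or D or exposed B, C or D (0.063 to 0.096).

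Among fatty acid synthesis and desaturation genes 2 of 5 were higher at 3.4 mg/L. Malic enzyme ME1, a further source of NADPH, averaged 350 ± 5.26 CPM, against 220 ± 26.3 CPM in TNT controls (SD, n = 4 each), a log2 fold change of 0.7 (edgeR adjusted p = 5e-05). The elongase ELOVL6 was 1.0 higher on the log2 scale (edgeR adjusted p = 0.011; 0.062 with the 8 libraries alone). ACSS2, at 0.6, and ELOVL2, at -0.09, did not pass (edgeR adjusted p = 0.37 and 0.59). Both were called at a lower dose, ACSS2 at 2.3 mg/L (1.36, edgeR adjusted p = 0.041) and ELOVL2 at 1.5 mg/L (0.31, adjusted p = 0.032). Leaving out control A, B or C or exposed A or B ended the ACSS2 call (0.073 to 0.15), and leaving out control B, C or D or exposed B, C or D ended that of ELOVL2 (0.059 to 0.12).

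Of the 3 tested sterol synthesis genes outside the members, squalene synthase-like alone was called, while GGPS1 (-0.01) and LBR (0.02) had edgeR adjusted p of 0.99. Of 5 genes of sterol export, storage and bile acids, HSD3B7, a bile acid enzyme, was lower at 3.4 mg/L (-0.48, edgeR adjusted p = 0.013; 0.053 with lane as a term). None of 5 glycerolipid synthesis genes was called by edgeR or DESeq2, 1 having an unadjusted edgeR p under 0.05, as had 2854 of 12648 transcripts. These gene calls move beside the marker shifts given above.

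**Figure D4:**
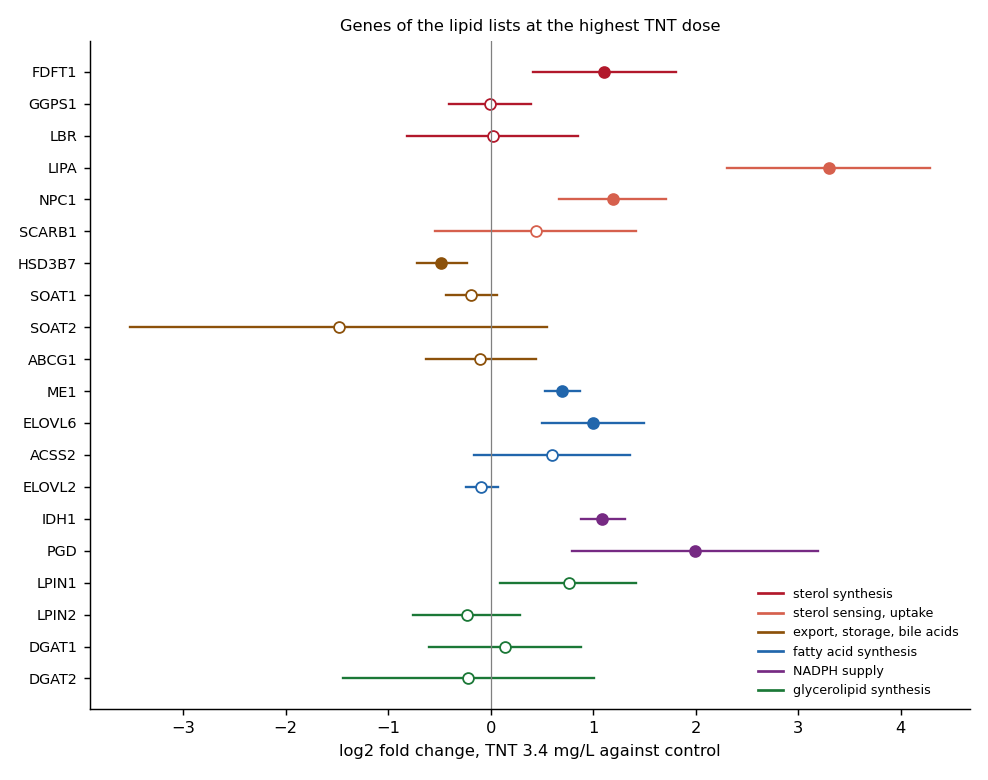
log2 fold change at 3.4 mg/L TNT over control with 95% interval for 20 named genes of the 6 lists, grouped by list; filled points have an edgeR adjusted p under 0.05. LIPA lies farthest to the right at 3.3, and 1 filled point, HSD3B7, lies below 0.

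In IMX-101 tadpoles 0, 1 and 3 of the 27 tested listed genes were higher at 10, 20 and 40 mg/L and 0 lower. Over all transcripts 0.718%, 2.66% and 3.84% were called higher at these doses and 0.271%, 2.55% and 3.68% lower. At 10 mg/L 5 listed genes had an unadjusted p under 0.05 in edgeR, as had 1250 of all 12542 transcripts, and DESeq2 called 2 listed genes. Microsomal triglyceride transfer protein MTTP, which loads lipid onto lipoproteins, stood at 26, 16, 31 and 26 CPM at 40 mg/L, against 8.82, 10.0, 9.82 and 12.6 CPM in controls (log2 fold change 1.27, edgeR adjusted p = 0.00082). LIPA stood at 13.3, 11, 15.3 and 16.7 CPM at 40 mg/L, against 5.82, 4.69, 6.98 and 4.91 CPM in controls (1.33, edgeR adjusted p = 0.0058). ME1 averaged 413 ± 18.5 CPM at 40 mg/L, against 286 ± 10.8 CPM in controls (SD, n = 4 each; 0.53, edgeR adjusted p = 5.1e-05). None of these groups overlapped, a description as said above, and all 3 calls rest on libraries of another sequencing set than the controls. At the highest NQ and MeNQ doses edgeR called 0 of 27 listed genes, with 4 and 3 at an unadjusted p under 0.05, and DESeq2 called 2 and 1. Over all transcripts 2117 of 12969 (NQ) and 1352 of 13496 (MeNQ) had such an unadjusted p in edgeR. DESeq2's share over all transcripts is not reported here.

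Within groups, the 3 sterol enzymes varied together from pool to pool, most clearly in MeNQ and IMX-101. Deviations of log2(CPM + 1) from the group mean were correlated over all 72 libraries for 21 pairs of genes, with p from 100000 permutations within groups and adjusted over the 21. Squalene monooxygenase-like and squalene synthase-like had Pearson's r of 0.82 (permutation p = 1e-05, the smallest these permutations can give, adjusted 0.00011) and Spearman's rho of 0.77 (adjusted permutation p = 0.00021). Without the 2 libraries farthest from the median in squalene monooxygenase-like, r was 0.78. For the pairs below, too, the 2 libraries were picked on 1 gene, the first named unless stated. By exposure r of this first pair was 0.94 in IMX-101, 0.93 in MeNQ and 0.66 in NQ but 0.28 in TNT. The permutations take the libraries of a group as exchangeable, and in NQ the letter ran across groups: library D was above its group mean in all 5 groups for both genes. With deviations also centred on the letter within each exposure, r was 0.79 over all libraries, 0.96 in IMX-101, 0.89 in MeNQ, -0.01 in NQ and 0.34 in TNT.

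Diphosphomevalonate decarboxylase-like and squalene monooxygenase-like had r of 0.63 (adjusted permutation p = 0.00011) and rho of 0.59 (adjusted permutation p = 0.00021), with r of 0.62 without 2 libraries. By exposure r was 0.53 in TNT, 0.36 in NQ, 0.81 in MeNQ and 0.72 in IMX-101. Centred also on the letter it was 0.6 over all libraries. The decarboxylase and squalene synthase-like had r of 0.56 (adjusted permutation p = 0.0007) and rho of 0.53 (adjusted permutation p = 0.00084), with r of 0.58 without 2 libraries. By exposure r was 0.77 in MeNQ and 0.75 in IMX-101, and the relation did not hold in NQ (0.25) or TNT (-0.18). Centred also on the letter it was 0.47 over all libraries and -0.26 in NQ.

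Squalene monooxygenase-like and the receptor had r of 0.44 (adjusted permutation p = 0.0022) and rho of 0.41 (adjusted permutation p = 0.01), with r of 0.47 without 2 libraries. By exposure r was 0.8 in NQ, 0.34 in MeNQ, 0.38 in IMX-101 and -0.38 in TNT. In NQ, library A had 0 receptor steps and lay below its group mean for the monooxygenase in all 5 groups, and library D lay above it. Centred also on the letter, r was 0.09 over all libraries and 0.2 in NQ, so this relation did not hold within letters. The receptor and squalene synthase-like had r of 0.35 (adjusted permutation p = 0.013) and rho of 0.33 (adjusted permutation p = 0.038), with r of 0.34 without 2 libraries, and -0.63 within TNT. Centred also on the letter it was 0.12 over all libraries.

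Before centring on the letter, fatty acid synthase showed no such relation with squalene monooxygenase-like (r of 0.06, rho of 0.01, adjusted permutation p = 0.92 and 0.91, r of -0.0 without 2 libraries) or with the decarboxylase (r of 0.16, rho of 0.13, adjusted permutation p = 0.48 and 0.76, r of 0.18 without 2 libraries). The 2 libraries left out here were the farthest in the monooxygenase or the decarboxylase, not in fatty acid synthase. Centred also on the letter, r of fatty acid synthase over all libraries was 0.18 with the monooxygenase and 0.33 with the decarboxylase, without a test. For the decarboxylase it was then 0.29 in TNT, 0.35 in NQ, 0.47 in MeNQ and 0.07 in IMX-101. The deviations followed depth little, with r against log2 depth of 0.06 for the decarboxylase, 0.03 for the monooxygenase and -0.09 for fatty acid synthase.

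**Figure D5:**
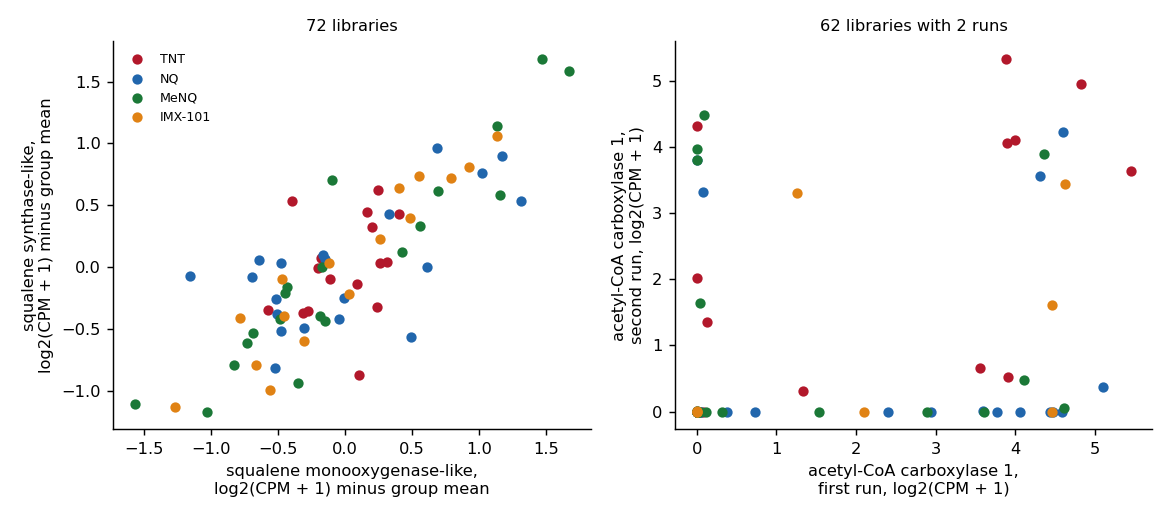
Left, deviation of log2(CPM + 1) from the group mean for squalene monooxygenase-like (x axis) and squalene synthase-like (y axis) in 72 libraries, coloured by exposure (r of 0.82). Right, log2(CPM + 1) of acetyl-CoA carboxylase 1 in the first run (x axis) and the second run (y axis) of the 62 libraries with 2 runs, many of which lie along an axis.

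The transcripts most like the members were ranked by Pearson's r with a score of the 6 tested members, as a description. The score was the mean of their log2(CPM + 1) less the control mean of the same exposure, each divided by its SD. It weighs the receptor and acetyl-CoA carboxylase 1 as much as the others, with the limits given above. Over 72 libraries and 7290 transcripts the nearest were protein ELYS (r of 0.783), the splicing helicase PRP16 (0.771) and R3H and coiled-coil domain-containing protein 1-like (0.765). Over the 16 TNT libraries and 7258 transcripts they were ectonucleoside triphosphate diphosphohydrolase 1 (0.842), a phospholipase C eta-1-like transcript (0.84) and liver carboxylesterase 2-like (0.822). All points share library depth and, within TNT, the group differences given above.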

How the data were processed

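Poly-A RNA was sequenced from a stranded library kit, per the labels' protocols. The authors demultiplexed with bcl2fastq 1.8.4 and estimated transcript abundance with Salmon, per the submitters' processing notes; no version of Salmon was found in those notes. The deposited values are estimated counts per transcript and run (expected counts). Labels and the series text disagree on 3 doses, and the labels were used.

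Runs of a library were summed and rounded to whole numbers. Each exposure was fitted on its own with edgeR 4.0.16 in R 4.3.3: its filter on low counts, TMM scaling, a mean for each group and the quasi-likelihood F test, over all transcripts that passed, with Benjamini-Hochberg adjustment at 0.05. Slopes over dose steps and differences between MeNQ and NQ responses used the same test. CPM were TMM-scaled over all 72 libraries, and standard errors follow from the F statistic. The code was tested on simulated counts. No run column lacked a sample. Members and lists were chosen with earlier results of these data known; 12 of the 40 matched list genes and 4 of the 14 matched markers were added after the names in the files were read. Of each list, up to 4 genes with the smallest adjusted p at the highest dose are named, called or not, and others were chosen after their values were seen; a few that this rule would name are counted but not reported here. Alternatives were DESeq2 1.42.0, its size factors, no filter, the replicate letter as a block, lane as a term, only the libraries compared, counts summed by name, the mean of runs and leaving out each library. Sequences were not used here.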

Additional observations from a re-analysis of the deposited data

Results flagged for a closer look

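In groups of 4, a library was set apart where its gap to the nearest other was large for the group's range, beyond the 95% limit of Dixon's test. For continuous values with a normal spread, chance sets apart about 1 in 20 groups, or 6.0 of the 121 tested. Here 25 were found. That rate does not hold where 1 library held all the counts of its group, since such a library is set apart whatever its count. Many of the 25 were of this kind, among them all those of acetyl-CoA carboxylase-like. The 25 are therefore not read as an excess over 6.0, and none of them is weighed here.

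Squalene monooxygenase-like had 5 such libraries: NQ control D at 182 CPM (nearest other 65.7), MeNQ control D at 232 (64.0), MeNQ 170 mg/L A at 34.0 (23.3), MeNQ 851 mg/L A at 85.7 (23.6) and IMX-101 20 mg/L A at 127 (52.8). Diphosphomevalonate decarboxylase-like had 2, MeNQ 851 mg/L A at 104 CPM (38.7) and IMX-101 40 mg/L D at 333 (129). MeNQ 851 mg/L A was thus high for both enzymes.

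Fatty acid synthase had 3, all in NQ: control D at 3.17 CPM (2.45), 30 mg/L C at 11.7 (3.58) and 750 mg/L C at 13.4 (2.15). Low density lipoprotein receptor-1 had 2, NQ 30 mg/L D at 6.03 CPM (others 0) and NQ 750 mg/L D at 8.8 (1.3).

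Acetyl-CoA carboxylase 1 had 6: TNT 2.3 mg/L A at 1.41 CPM, MeNQ control D at 16.3, MeNQ 34 mg/L C at 8.57, MeNQ 170 mg/L D at 9.95, IMX-101 control B at 11.1 and IMX-101 20 mg/L D at 17.9. The others of their groups were at 0 to 1.45 CPM. Acetyl-CoA carboxylase-like had 7 groups in which 1 library held all its counts: TNT control C at 0.112 CPM, TNT 2.3 mg/L B at 0.377, NQ control C at 0.274, NQ 150 mg/L A at 0.177, MeNQ 170 mg/L A at 0.0557, MeNQ 851 mg/L B at 0.105 and MeNQ 4225 mg/L A at 0.0646.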

How the results depend on the processing

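No member's log2 fold change that passed the test changed sign under any alternative. The number of members called moved by more than 1.5 times in 4 places: DESeq2's Wald test called 1 member at 3.4 against 2.3 mg/L TNT in place of 0, the slope over log10 of dose called 2 in TNT in place of 0, and at 10 mg/L IMX-101 the count was 0 in place of 1 with the replicate block and 0 with only the libraries compared. Leaving out 1 library gave 0 to 1 members at 10 mg/L and 0 to 1 at 20 mg/L IMX-101. Smaller moves came from the receptor. At 3.4 mg/L TNT 2 members were called in place of 3 with the replicate block, with lane as a term, with the receptor in steps, with only libraries of 2 runs and in 7 of 8 leave-outs. At 1.5 and at 2.3 mg/L 3 were called in place of 2 by DESeq2's Wald test and without library A of that dose. The cause was not tested. The letters were not taken as pairs, since no label ties them. Correlations of same-letter deviations ran from -0.0664 to 0.0852. Their median, against that of other letters, was 0.0231 against -0.00361 in NQ and 0.0047 against -0.00192 in MeNQ. In TNT it was -0.00303 against -0.00225, and in IMX-101 -0.0117 against 0.00278. By this measure 4 of 16 TNT, 13 of 20 NQ, 9 of 20 MeNQ and 1 of 16 IMX-101 libraries were closest to their own letter. For NQ that share, and the D libraries high in squalene monooxygenase-like and the receptor, are a hint from the data that the letters share something there. Centring on the letter was added after seeing the data and lowered the 2 receptor correlations from 0.44 and 0.35 to 0.09 and 0.12. It raised that of fatty acid synthase with the decarboxylase from 0.16 to 0.33, and with the monooxygenase from 0.06 to 0.18. The replicate block gave 2 members called at each TNT dose, 0 at 10 mg/L and 1 at 20 and 40 mg/L IMX-101, and 0 in every NQ and MeNQ comparison. Lane could not be fitted for IMX-101. Low counts limit fatty acid synthase in exposed IMX-101 tadpoles, steps limit the receptor, and run-to-run loss limits acetyl-CoA carboxylase 1.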

Other observations

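In the NQ experiment the receptor followed the library letter. Library A had 0 steps of Low density lipoprotein receptor-1 in all 5 groups, while library D had 3, 3, 8, 3 and 4 steps from control to 3750 mg/L and was the highest of its group in each. The labels do not say what the letters A to D share within that experiment.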
